A study of Arabidopsis thaliana with 3 samples.

Results

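The genes described here are 161 Arabidopsis thaliana genes known on the array only by a locus code, whose signal differed from wild type at least 2-fold in seedlings overexpressing WRKY6 and by less than 1.5-fold in seedlings lacking it. They were chosen from 11933 probe sets that name 1 gene by its locus code, out of 22746 probe sets that are not array controls. In 87 of them the signal was higher in the overexpressing line and in 74 it was lower, and these are called rises and falls below. Each genotype was hybridised to 1 Affymetrix array, so every value is from a single array and nothing could be tested. The values that chose the genes are the same ratios that describe them, so the ratios are a description and not evidence of an effect.

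The 3 groups were wild-type seedlings of the Columbia ecotype, seedlings of the line 35S:WRKY6-9 (35S:WRKY6 below) and seedlings of the wrky6-1 knockout, all kept cold for 2 days as seed, grown on MS agar at 22 °C under constant light, and harvested at an age of 7 days. In 35S:WRKY6 the gene is driven by the cauliflower mosaic virus 35S promoter, which is active in most plant cells, so WRKY6 is made in cells that may not normally make it. The labels name 1 overexpressing line and 1 knockout, give an ecotype for the wild type only, and do not say how many seedlings went into each extract. Whole seedlings were used, so fewer cells of a type and less RNA per cell cannot be told apart.

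WRKY6 is a plant transcription factor of the WRKY family, whose members bind W-box elements in the promoters of their targets. It is known for roles in leaf senescence, defence, and the response to low phosphate and low boron, and it can act as an activator or as a repressor. The genes below carry no description of function in the annotation used, so no role is given for them, except the few with a name among their RefSeq synonyms.

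WRKY6 itself (AT1G62300) gave 322 on the wild-type array, 9245 on that of 35S:WRKY6 and 12.1 on that of wrky6-1. Both differences run in the direction of the labels. Of 6 genes listed as tied to WRKY6 in earlier work, itself included, WRKY6 was the 1 with a single-gene probe set.

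Signals under 45.5, the 30th percentile over all arrays, were raised to that floor before ratios were taken, because low signals are imprecise after background subtraction. The higher of the 35S:WRKY6 and wild-type signals had to reach 174.6, the 50th percentile. Of the 5387 locus-coded probe sets that did so, 196 (3.64%) exceeded wild type 2-fold or more in 35S:WRKY6 and 312 (5.79%) fell short of it by as much. Over all 12141 measured probe sets the shares were 3.79% and 5.61%, and with the limit on wrky6-1 added they were 1.53% and 1.24%. The limit on wrky6-1 kept 87 of the 196 (1.61% of those measured) and 75 of the 312 (1.39%). One of the 75 was AT2G03240, which the rule leaves out. Among the 982 measured probe sets with a gene symbol, 13 (1.32%) and 19 (1.93%) met the same limits.

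Precision between probe sets on the same arrays was judged from genes read by 2 measured probe sets. Their log2 ratios gave an SD per probe set of 0.25 over 45 genes for 35S:WRKY6 against wild type and 0.23 over 46 genes for wrky6-1 against wild type. Variation between seedlings, extracts and hybridisations is not part of these values. The median log2 ratio of all measured probe sets was -0.02 for 35S:WRKY6 against wild type.

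The rises had signals of 6.81 to 2298 in wild type (median 183), 182 to 6428 in 35S:WRKY6 (median 459) and 1.52 to 2867 in wrky6-1 (median 194). The median fold over wild type in 35S:WRKY6 was 2.49. Of the 87, 44 were 2-fold to under 2.5-fold higher, 17 were 2.5-fold to under 3-fold, 14 were 3-fold to under 4-fold and 12 were 4-fold or more. In 40 of the 87 the wild-type signal was under 174.6, so these were measured only through 35S:WRKY6 and could appear only as rises. The other 47 were measured in wild type as well.

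Ranked by ratios taken with the floor of 45.5, AT3G25790 came first among the rises, with signals of 67.8 in wild type against 445 in 35S:WRKY6 and 84.3 in wrky6-1, 6.56-fold over wild type. AT4G21870 followed at 765, 4841 and 900, 6.33-fold over wild type. It was the brightest of the 12 largest rises, and its wild-type signal lay well over the filter, so its ratio does not rest on a low signal. The order depends on the floor: with no floor and 1 added to every signal the log2 ratio was 5.04 in AT1G76960 against 2.70 in AT3G25790, and with the floor at the 40th percentile AT3G25790, at 2.21, lay below AT4G21870 and AT2G27080, at 2.66 and 2.34. The 35S:WRKY6 array stood alone for both AT3G25790 and AT4G21870, while the other arrays lay close together, as the rule requires of every member.

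Signals under the floor in wild type bounded 4 of the 12 largest rises. AT2G47010, at 39.2 in wild type against 257 in 35S:WRKY6 and 57.8 in wrky6-1, was at least 5.65-fold higher in 35S:WRKY6. AT1G76960, at 6.81, 256 and 29.4, was at least 5.62-fold higher. AT4G22050, at 34.1, 231 and 1.52, was at least 5.09-fold higher. For these last 2 genes both wild type and wrky6-1 were under the floor, so the floor alone sets their log2 ratio of wrky6-1 to wild type to 0. AT4G28140, at 29.5, 228 and 57.8, was at least 5.01-fold higher.

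The other large rises had wild-type signals over the floor. AT4G35985 was at 84.7 in wild type against 431 in 35S:WRKY6 and 94.5 in wrky6-1 (5.08-fold). AT2G27080 was at 168, 851 and 121 (5.07-fold) and had a log2 ratio of 35S:WRKY6 to wrky6-1 of 2.81, which came first among the floored ratios. Those of AT4G22050 and AT1G76960, 2.35 and 2.49, are bounds set by the floor and cannot be ranked against it. AT5G25440 was at 49.8, 240 and 42.7 (4.82-fold). In all 3 the wrky6-1 signal lay near that of wild type on the scale of the difference to 35S:WRKY6, as the limit on wrky6-1 requires. AT2G23680 was at 86.1, 405 and 67.9 (4.70-fold). AT1G14960 was at 252, 1080 and 262 (4.28-fold), and AT2G39500 at 146, 586 and 129 (4.00-fold).

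**Figure D1:**
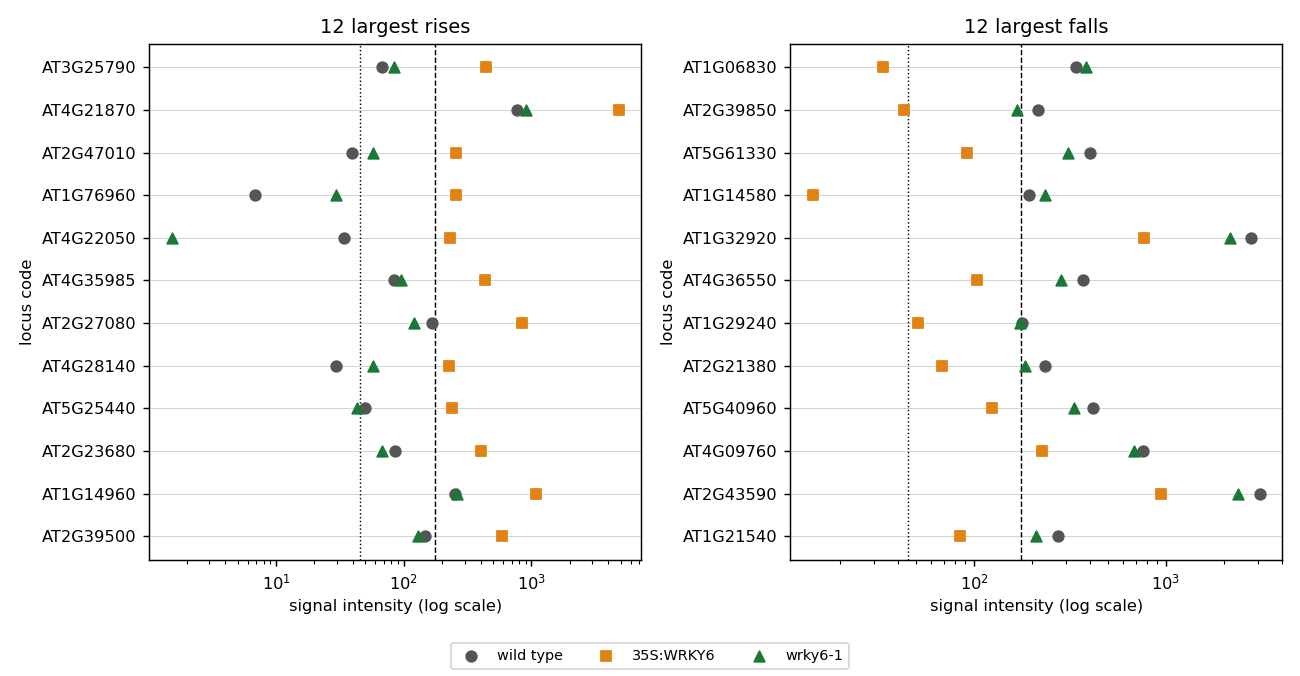
Signal intensity (log scale) of the 12 largest rises and the 12 largest falls on each of the 3 arrays: circles are wild type, squares 35S:WRKY6 and triangles wrky6-1, 1 array each; the dotted line is the floor of 45.5 and the dashed line the filter of 174.6. The square is the rightmost symbol for every rise and the leftmost for every fall, which the rule fixes in advance. In AT4G22050 wild type and wrky6-1 lie far apart, at 34.1 and 1.52, but both are under the floor.

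The 14 rises between 3-fold and 4-fold were named after their values were seen, to complete that range. Their wild-type signals ran from 59.8 in AT5G09570, which was at 237 in 35S:WRKY6 and 67.7 in wrky6-1, to 524 in AT5G62360, which was at 1833 and 710. AT1G19020 was at 476, 1624 and 418 (3.41-fold), AT5G39580 at 167, 610 and 132 (3.65-fold) and AT2G20560 at 137, 485 and 132 (3.54-fold). The wrky6-1 signal was a little under that of wild type in these last 3 genes. AT4G18280, at 236, 716 and 175, was 3.04-fold higher in 35S:WRKY6. In AT5G61290, at 67.8, 226 and 101, wrky6-1 lay just inside the limit over wild type. AT2G29370, AT4G10270, AT1G13750, AT5G25450, AT4G14060, AT2G41990 and AT5G13200 were between 3-fold and 3.87-fold over wild type.

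The 4 brightest rises were AT3G18280, AT4G21870, AT1G18210 and AT5G19250, and their folds ran from 2.23 to the 6.33 of AT4G21870, given above. AT3G18280 was at 2298 in wild type against 6428 in 35S:WRKY6 and 2867 in wrky6-1 (2.80-fold). AT1G18210 was at 1992, 4496 and 2220 (2.26-fold), and AT5G19250 at 1898, 4230 and 2228 (2.23-fold). Of the 87 rises, 21 exceeded a signal of 1000 in 35S:WRKY6, with a median fold of 2.40, against 2.47 for the 48 that stayed under 500. Both medians lie near the 2-fold limit that every rise had to pass, so nothing is read from them.

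Only 2 rises have a name among their RefSeq synonyms that is theirs alone. AT5G64120 is PRX71, one of the secreted peroxidases that act on the cell wall, with signals of 1409 in wild type against 3183 in 35S:WRKY6 and 1023 in wrky6-1, 2.26-fold over wild type. AT1G10050 is listed as ATXYN2, and was at 80.7, 197 and 96.0 (2.44-fold). AT1G30260 carries AGL79 among its synonyms, but the same table gives AGL79 as the symbol of AT3G30260, so the locus code is kept. Its signals were 633, 1517 and 619, and wild type and wrky6-1 differed by 1.02-fold.

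Several rises had nearly the same signal in wild type and wrky6-1. Of the 82 with both signals at or over the floor, 20 differed between these arrays by less than 1.1-fold and 37 by less than 1.2-fold. Among the 74 falls the counts were 14 and 25. The limit on wrky6-1 selects for such closeness, and the share over all probe sets was not computed, so nothing is read from these counts. AT2G34510 was at 474 in both and at 1202 in 35S:WRKY6, and AT4G24380 was at 227 in wild type, 229 in wrky6-1 and 454 in 35S:WRKY6. AT2G34510 was named after its values were seen, as the closest match among rises over the floor.

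The falls had signals of 175 to 3456 in wild type (median 391), 14.5 to 1626 in 35S:WRKY6 (median 146) and 131 to 3294 in wrky6-1 (median 313). The median fold was 2.50. Of the 74, 37 were 2-fold to under 2.5-fold lower, 20 were 2.5-fold to under 3-fold, 13 were 3-fold to under 4-fold and 4 were 4-fold or more. Every fall passed the filter through its wild-type signal, as a fall must.

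Ranked in the same way, AT1G06830 came first among the falls, with signals of 338 in wild type against 33.6 in 35S:WRKY6 and 385 in wrky6-1, a fall of at least 7.43-fold. AT2G39850, at 215, 43.3 and 168, was at least 4.73-fold lower. AT1G14580, at 194, 14.5 and 234, was at least 4.26-fold lower. These 3 were the falls that reached the floor in 35S:WRKY6, so their folds are bounds and have no order. With no floor the log2 ratio was -3.65 in AT1G14580 and -3.29 in AT1G06830. Also, in AT1G06830 and AT1G14580 wrky6-1 lay over wild type. AT5G61330 was at 402, 92.3 and 310 (4.36-fold).

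Among the 12 largest falls 2 were abundant. AT1G32920 was at 2768 in wild type against 764 in 35S:WRKY6 and 2148 in wrky6-1 (3.63-fold). AT2G43590 was at 3086, 939 and 2377 (3.29-fold). In both the wrky6-1 signal was somewhat under wild type but far over 35S:WRKY6. AT4G09760, at 758, 226 and 680, was 3.36-fold lower, and AT4G36550, at 370, 104 and 282, was 3.55-fold lower.

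The remaining large falls were dimmer. AT1G29240 was at 178 in wild type against 51.0 in 35S:WRKY6 and 174 in wrky6-1 (3.49-fold), with wild type just over the filter. AT2G21380 was at 235, 68.2 and 183 (3.45-fold), and AT5G40960 at 418, 124 and 332 (3.36-fold). AT1G21540 was at 275, 84.6 and 210 (3.25-fold). AT1G29240 was the only one of the 12 in which wrky6-1 and wild type differed by less than 1.1-fold.

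The brightest falls were AT2G20230, AT5G48490, AT2G05790 and AT2G43590, the last given above. AT2G20230 was at 3456 in wild type against 1433 in 35S:WRKY6 and 2527 in wrky6-1 (2.41-fold). AT5G48490 was at 3440, 1626 and 3294 (2.12-fold), with wrky6-1 close to wild type. AT2G05790 was at 3359, 1570 and 2501 (2.14-fold). Of the 74 falls, 12 exceeded 1000 in wild type, with a median fold of 2.39, against 2.60 for the 45 under 500. Every fall had to pass the 2-fold limit, so nothing is read from these medians either.

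**Figure D2:**
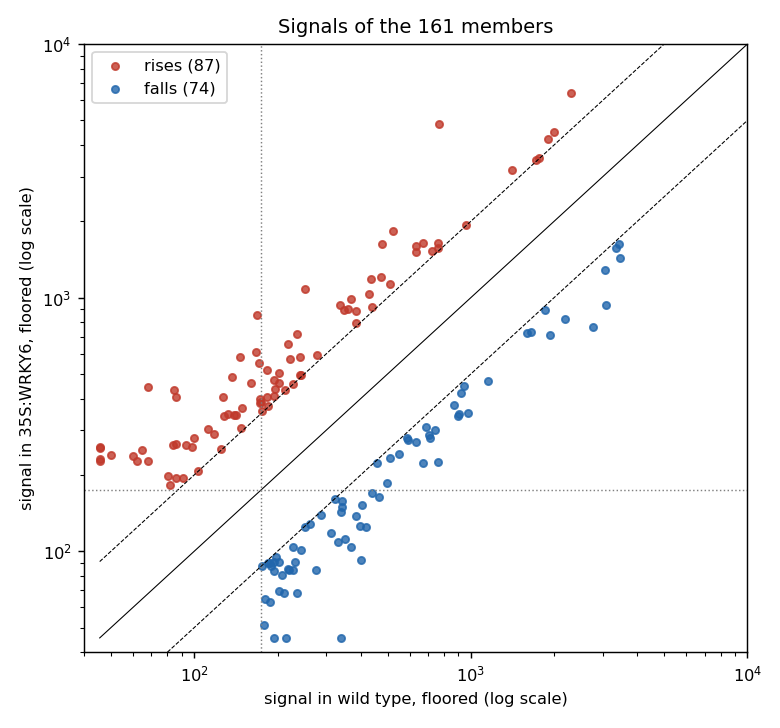
Signal in 35S:WRKY6 against signal in wild type for the 87 rises and 74 falls, 1 point per gene, both axes on a log scale with signals under 45.5 drawn at 45.5; the solid line marks equal signals, the dashed lines 2-fold differences and the dotted lines the filter of 174.6. Rises reach to the left of the filter, where 40 of them lie, while no fall can. In the same way most falls lie below the filter on the vertical axis, where no rise can.

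The limit on wrky6-1 was 1.5-fold, so the genes were not all alike in that line. The log2 ratio of wrky6-1 to wild type had a median of 0.18 over the rises (-0.52 to 0.58) and of -0.36 over the falls (-0.57 to 0.58). Both lines were set against the same wild-type array, so a deviation of that array enters both ratios. Compared directly, 58 of the 87 rises had a 2-fold or larger excess in 35S:WRKY6 over wrky6-1, and the other 29 had not. The smallest ratio was 1.40-fold. Of the falls, 43 of 74 had a 2-fold or larger deficit against wrky6-1 and the other 31 had not, the smallest ratio being 1.41-fold. Over all probe sets measured in this comparison 4.52% had such an excess and 4.65% such a deficit. The floored ratio of 35S:WRKY6 to wrky6-1 follows from the 2 ratios that the rule used. The member counts are therefore largely set by the rule, and nothing is read from their distance to these shares.

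The genes nearest to each limit show how thin the margins are. At the 2-fold limit, the log2 ratios of 35S:WRKY6 to wild type were 1.002 in AT4G24380, 1.004 in AT1G53060 and 1.01 in AT3G49720, just inside, and 0.996 in AT5G46450, 0.99 in AT1G30870 and 0.99 in AT3G50620, just outside. For the falls AT3G48020, AT1G79950 and AT2G19130 lay inside at -1.002, -1.003 and -1.01, and AT5G62150, AT1G17850 and AT5G65250 outside, from -0.9998 to -0.999. These differences are far smaller than the SD of 0.25 between probe sets.

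At the filter, AT1G53350, AT5G17980 and AT1G34510 were the dimmest rises, with signals of 182, 194 and 195 in 35S:WRKY6. AT1G08310, AT1G70500 and AT1G24600 were left out at 164, 160 and 157. The dimmest falls were AT3G48020, AT1G29240 and AT3G13000, at 175, 178 and 180 in wild type, and AT4G24480, AT1G67800 and AT3G45260 were left out at 174, 173 and 170.

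At the wrky6-1 limit, a log2 ratio of 0.585, the rises AT5G61290, AT5G13200 and AT5G65470 lay inside at 0.58, 0.56 and 0.55, and AT5G15950, AT1G11960 and AT3G12510 outside at 0.588, 0.589 and 0.594. The falls nearest the limit were AT1G55960, AT5G16610 and AT3G47000, at 0.58, -0.57 and -0.57. AT1G23030, AT4G25780 and AT1G65010 were left out at -0.603, -0.604 and -0.604. AT1G55960, at 866 in wild type against 377 in 35S:WRKY6 and 1299 in wrky6-1, was a fall in 35S:WRKY6 with wrky6-1 on the other side of wild type. AT4G25780 had a log2 ratio of -2.97 in 35S:WRKY6 and was left out for its wrky6-1 ratio.

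For 5 of the 161 genes a second probe set names the same gene, and none of the 5 met the limits. AT4G02480 was at 631 in wild type against 269 in 35S:WRKY6 and 519 in wrky6-1 by the chosen probe set, and at 2442, 1957 and 1520 by the brighter one, a log2 ratio of -0.32 in place of -1.23. AT4G02480 also lists AT4G02470 among its synonyms, so these probe sets may not read the same transcript. AT5G54130 was at 212, 433 and 279 by the chosen probe set and at 157, 258 and 238 by the other, log2 ratios of 1.03 and 0.71. The second probe sets of AT3G47980, AT3G60420 and AT4G13150 were under the filter. That of AT3G47980 was over the floor on every array, at 67.9, 73.3 and 74.0, a log2 ratio of 0.11 against 1.02 by the chosen probe set. Those of AT3G60420 and AT4G13150 were under the floor throughout, reaching at most 5.59 and 36.5, and give no ratio. The suffix _s_at, which marks probe sets matching more than one transcript, was carried by 2 of the 161, those of AT2G07707 and AT2G15220.

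The position of the genes was not used to choose them. The rises lay on chromosomes 1 to 5 in numbers of 18, 15, 13, 15 and 26, and the falls in numbers of 24, 13, 13, 10 and 14. Chromosome 5 held 29.9% of the rises and 18.9% of the falls, against 24.3% of the locus-coded probe sets measured. Chromosome 1 held 20.7% of the rises and 32.4% of the falls, against 26.4%. These shares were not tested.

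In 2 places neighbouring genes were both on the list, each pair with a shared direction. The number of pairs was not set against other gene lists of this length and was not tested. AT1G06830 and AT1G06840 lie side by side and were falls. AT1G06840 was at 330 in wild type against 108 in 35S:WRKY6 and 306 in wrky6-1 (3.04-fold), beside the fall of at least 7.43-fold in AT1G06830. AT5G25440 and AT5G25450 were rises, the second at 127, 405 and 162 (3.20-fold).

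Next to the rises lay 76 other genes with a single-gene probe set, of which 36 were measured. Their median log2 ratio in 35S:WRKY6 was 0.04, and 2 (5.56%) were at least 2-fold higher, against 3.72% of all single-gene probe sets measured. AT5G19240, beside AT5G19250, was at 366 in wild type against 1775 in 35S:WRKY6 and 584 in wrky6-1, a larger rise than that of the listed gene, and was left out by its wrky6-1 log2 ratio of 0.67. AT3G60440, beside AT3G60420, was at 128, 289 and 200. AT5G64110, beside PRX71, went the other way, at 724, 225 and 303. Next to the falls 19 of 50 other genes were measured, with a median log2 ratio of -0.09, and 1 (5.26%) was at least 2-fold lower, AT1G76590, against 5.83% of all. These counts leave out neighbours that are themselves on the list. With them included, 4 of 38 measured neighbours of rises (10.5%) were 2-fold or more higher. For the falls 3 of 21 (14.3%) were 2-fold or more lower. Here each of the pairs above counts both of its genes, which the rule had chosen, so nothing is read from these shares.

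Root markers also had higher signals in 35S:WRKY6. Of 13 genes listed as markers of root, 6 had a single-gene probe set and were measured. All 6 had a ratio of 35S:WRKY6 to wild type above 1, against 48.1% of all measured probe sets. None reached 2-fold. AT1G30870, at 563 in wild type against 1119 in 35S:WRKY6 and 535 in wrky6-1, was just under the limit, as given above. AT5G17820 was at 1048, 1743 and 829, and the root hair expansin gene EXPA7 at 128, 243 and 113. The cellulase gene GH9C1 was at 227, 389 and 205, EXPA18, another root hair expansin gene, at 179, 305 and 195, and PYK10, a root β-glucosidase, at 14213, 17509 and 18203.

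The 6 root markers had a median log2 ratio of 0.77 in 35S:WRKY6 and -0.11 in wrky6-1, and their summed signals, mostly that of PYK10, were 16358, 21308 and 20081. In wrky6-1 4 of them lay under wild type, and PYK10 and EXPA18 over it. The part of these markers in the rises was not tested. Of 13 green leaf markers, 2 were measured, RCA at log2 ratios of 0.34 and 0.35 in 35S:WRKY6 and wrky6-1 and LHCB4.2 at -0.40 and -0.47, so each was near the same in both lines. The summed signal of the 2 was 39264 in wild type against 39827 in 35S:WRKY6 and 39260 in wrky6-1. The only senescence marker with a probe set, SAG29, was at 64.4, 264 and 883. Of the seed markers 2 had a probe set, and neither was measured.

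**Figure D3:**
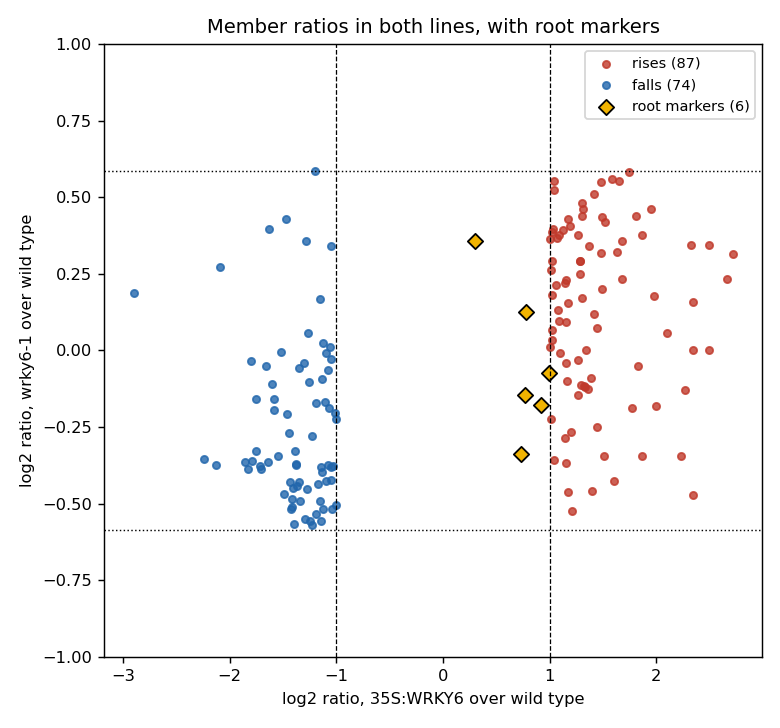
Log2 ratio of wrky6-1 to wild type against log2 ratio of 35S:WRKY6 to wild type for the 87 rises, the 74 falls and the 6 root markers (diamonds), 1 point per gene; dashed lines mark the 2-fold limit and dotted lines the 1.5-fold limit on wrky6-1, which together fix where the members can lie. The root markers lie between 0.30 and 0.99 on the horizontal axis, to the left of the rises.

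The list held more rises than falls, 54.0% of the 161, while 2-fold differences as a whole ran the other way. Under the same limits all measured probe sets also held more rises, 186 against 150, and those with a gene symbol held fewer, 13 against 19. Rises were 50.8% with a 2-fold limit on wrky6-1 and 51.4% with no filter, so the balance depends on the limits. Under other scalings of the arrays the balance leaned further to rises, with 94 and 61 under quantile scaling, 99 and 64 when the medians of the arrays were made equal, and 94 and 65 under lowess. Of the genes given here, 77 of 87 rises and 53 of 74 falls met the limits under all 3 of these scalings. The 12 largest rises were all among the 77, and 11 of the 12 largest falls among the 53, AT1G29240 being the exception. Equal medians moved the median log2 ratio of all measured probe sets from -0.02 to 0.09, and the falls AT5G48490 and AT2G05790 then lay under 2-fold, at -0.98 and -0.996.

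The lowess result depends on which probe sets the curve is fitted to. It was first fitted only to probe sets past the filter, which gave 70 rises and 50 falls, with 53 of the 87 and 47 of the 74 among them. After that result was seen it was fitted to all probe sets but controls, because at low mean signal the filter passes only probe sets with large differences. In the first fit 8 of the 12 largest rises no longer met the limits, namely AT3G25790, AT2G47010, AT1G76960, AT4G22050, AT4G35985, AT4G28140, AT5G25440 and AT2G23680. Their 35S:WRKY6 ratios stayed over 2-fold, and it was the wrky6-1 ratio that crossed its limit. For AT1G76960, under the floor in both, that ratio went from 0 to 1.08. Among the 12 largest falls AT1G14580 and AT1G29240 were lost, at log2 ratios of -0.90 and -0.64. With this fit counted as well, 50 rises and 40 falls met the limits under every scaling.

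**Figure D4:**
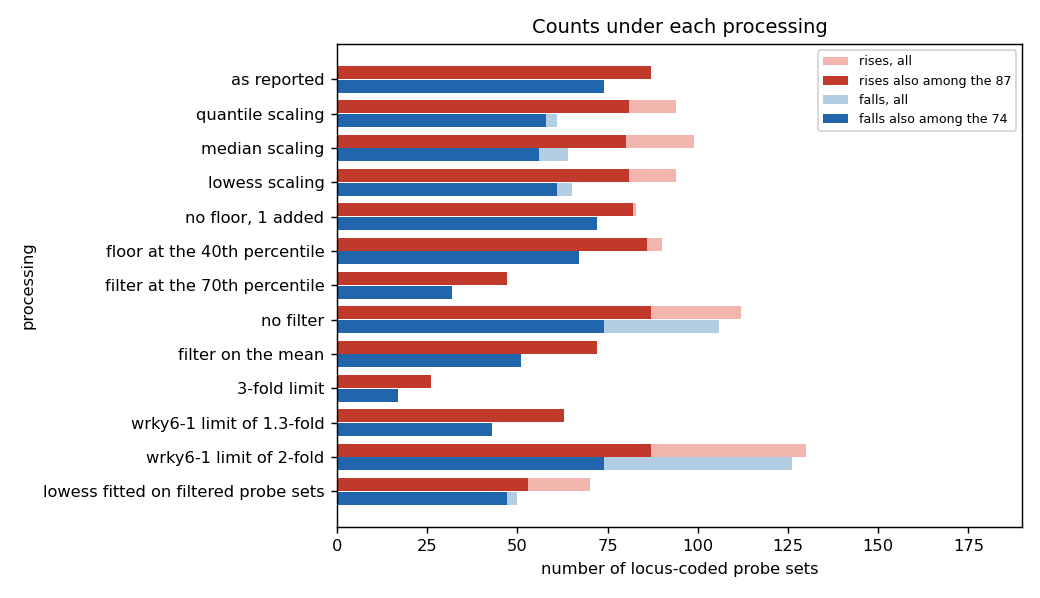
Number of locus-coded rises (red, upper bar of each pair) and falls (blue, lower bar) under the reported processing and 12 alternatives; the dark part of a bar counts genes that are also among the 87 rises or 74 falls reported. The counts range from 26 to 130 for rises and from 17 to 126 for falls, lowest at the 3-fold limit and highest with a 2-fold limit on wrky6-1.

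The mirror list, locus-coded genes at least 2-fold from wild type in wrky6-1 and within 1.5-fold in 35S:WRKY6, held 239 genes, 112 higher and 127 lower. Of 5418 locus-coded probe sets measured there, 4.32% exceeded wild type 2-fold or more in wrky6-1 and 8.19% fell short of it by as much. Those shares are for the 2-fold limit alone. The share of all probe sets that met both limits of the mirror list was not computed, so nothing is read from its length. The difference between the list lengths was not tested, and both rest on the same wild-type array.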

How the data were processed

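The deposited table holds linear signal intensity for each probe set, 1 column for each of 3 arrays. Per the submitters' processing notes GCOS 1.0 and MAS5 were used, with no role stated, and the genome build is not given in the sources used here. The 2% trimmed means of the deposited intensity were 500.0, 499.8 and 500.1 in wild type, 35S:WRKY6 and wrky6-1, so no further scaling was applied. Precision is limited by the number of arrays.

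Names came from the platform's annotation table, updated through Entrez identifiers to RefSeq's TAIR10.1 table, used for names and neighbours only. Of the 161 genes, 160 matched by identifier and 1 by locus code. Of all 22746 probe sets 8730 (38.4%) were not listed and 503 named several genes; these name no gene here but count among all probe sets. Log2 ratios, floor and filter were computed in Python 3.11.15 (pandas 2.3.3, statsmodels 0.14.6 for lowess). The rule was also run on simulated signals, as a check of the code only. The planted changes were larger and the signals brighter than in most members, and the noise was less than the SD between probe sets. That run therefore does not measure how reliable the members are.

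The members, lists and alternatives were chosen with earlier results of these data known. Named are the 12 largest and 4 brightest genes per direction, the 3 on each side of every limit, neighbours on the list, WRKY6, genes with a listed name, and those said to be named later. The planned functional classes and promoter motif count were not made, because no product descriptions or promoter sequences were used here. Other scalings, floors, filters and limits were tried. The lowess was fitted to all probe sets but controls, a choice made after a fit to filtered probe sets had been seen; both are reported.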

Additional observations from a re-analysis of the deposited data

Results flagged for a closer look

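The hybridisation controls, bacterial and phage transcripts added in fixed amounts to each sample, lie outside the gene comparisons and differed on the array that defines the list. Over the 9 later probe sets for them the median ratio of 35S:WRKY6 to wild type was 1.31 (1.17 to 1.39), above 1 in 9 of 9, and the median ratio of wrky6-1 to wild type was 1.05 (0.993 to 1.33). All 9 earlier probe sets for the same controls were listed at exactly 0 on the 35S:WRKY6 array, while on the other arrays they had signals, with a median ratio of wrky6-1 to wild type of 0.955. The part of this difference in the rises and falls was not tested.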

How the results depend on the processing

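No paired analysis was possible because each genotype has 1 array. The count of rises stayed within 1.5 times of 87 under quantile (94), median (99) and lowess (94) scaling, no floor (83), the higher floor (90), no filter (112), a filter on the mean (72) and limits on wrky6-1 of 1.3-fold (63) and 2-fold (130). It was 47 with the filter at the 70th percentile and 26 at a 3-fold limit. The falls were 61, 64, 65, 72 and 67 under the same scalings and floors, 106 with no filter and 51 with the filter on the mean. They were 32 with the filter at the 70th percentile, 17 at the 3-fold limit, and 43 and 126 with wrky6-1 limits of 1.3-fold and 2-fold. Fewer genes pass a stricter limit by construction. Neighbouring pairs numbered 2 as reported and with protein-coding genes only, 0 with the filter at the 70th percentile, 1 with the filter on the mean and 4 with no filter or the 2-fold limit. The lowess first fitted, on probe sets past the filter, gave 70 rises, 50 falls and 1 pair, and 13 of 35 named genes moved by more than 0.25. It was replaced after its result was seen. Counts over protein-coding genes, and pairs and root markers under the alternatives, were added after seeing the data. Of 35 named genes none changed direction under the 6 scaling and floor alternatives. The rule had put each of them at least 2-fold from wild type, so nothing is read from the unchanged direction. The 35 leave out genes named only for lying near a limit or only after their values were seen. Of the 35, 12 moved by more than 0.25 under the higher floor and 5 without a floor. The root markers' median ran from 0.77 to 0.88. The functional classes and motif alternative were not run. Signals near the floor limit the ratios of dim genes, and 1 array per genotype limits all of them.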

Other observations

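Among genes with a symbol, 32 met the same limits, 13 higher (1.32%) and 19 lower (1.93%) in 35S:WRKY6, and some have a known role. Over all measured probe sets the shares were 1.53% and 1.24%. The genes given below with their signals were picked from those 32 after their values were seen, so they stand for no group. They leave out larger changes, among them WRKY47, at least 5.58-fold lower, LEA18, at least 5.28-fold higher, and BGLU19, 5.13-fold higher. Among the higher ones, XTH20, a xyloglucan-modifying enzyme gene, gave 209, 1000 and 187 on the wild-type, 35S:WRKY6 and wrky6-1 arrays (4.79-fold), and the pectin methylesterase gene ATPMEPCRB was at 298, 788 and 271. SGT1A, a co-chaperone of immune receptors, was at 524, 1289 and 756, PUB22, a ubiquitin ligase that dampens immune signalling, at 172, 408 and 153, and OPCL1, an enzyme gene of jasmonate synthesis, at 242, 578 and 320.

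Lower in 35S:WRKY6 were the glutathione transferase gene GSTU16, at 705, 211 and 710 on the same arrays (3.34-fold), and RD2, named for its response to desiccation, at 3616, 1098 and 3591 (3.29-fold). CCS, the copper chaperone of superoxide dismutase, was at 1984, 860 and 1988. The ubiquitin ligase genes PUB25 and PUB26 were at 220, 82.3 and 207, and at 197, 90.1 and 233. RING1, a ubiquitin ligase linked to cell death in defence, was at 338, 131 and 451, and the glycosyltransferase gene UGT73B5 at 194, 62.4 and 190. Leaving WRKY47 aside, wild type and wrky6-1 differed most in RING1 among these lower genes, by a log2 ratio of 0.42.

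Of the 5519 measured probe sets not listed in the annotation, 82 higher and 49 lower met the limits. Over all 12141 measured probe sets, these included, 186 (1.53%) and 150 (1.24%) did so, and nothing is read from the counts.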
